A study of Mus musculus with 21 samples.

Results

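Amino acid supply and tRNA charging were examined through 36 genes chosen by biochemical role, and all 36 were among the 14493 genes of the count table. They comprised 8 genes of serine synthesis and one-carbon metabolism, the asparagine synthetase gene Asns, 9 amino acid transporter genes and 18 cytosolic aminoacyl-tRNA synthetase genes. Serine is made from a glycolytic intermediate, and its breakdown to glycine loads one-carbon units onto folate, which carries them to the synthesis of purines and thymidylate. Transporters bring amino acids into the cell, and each aminoacyl-tRNA synthetase joins an amino acid to its tRNA so that the ribosome can use it. In lymph nodes, germinal centre B cells divide fast and therefore need nucleotides, and plasma cells secrete antibody and therefore need charged tRNA in bulk.

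The cells were single B lineage cells from draining lymph nodes of 6 mice, 2 each at days 10, 16 and 22 of a primary response to 100 µg of NP-KLH in Sigma Adjuvant System. All mice carried Cre-ERT2-mediated labelling and received 5 mg of tamoxifen, and IgD-negative eYFP-positive cells were sorted. The promoter driving Cre-ERT2, the strain and the age are not given in the sources used here. Sorted plasma cells (PC) and all other cells (non-PC) went into separate wells, pooled over mice within each well and told apart by hashtag antibodies. The authors named 6 cell states: plasma cells (PC, 242 cells), plasma cell precursors (prePC, 47), cells on the way from the light to the dark zone (LZtoDZ, 232), memory precursors (preMem, 522), light zone cells (LZ, 3194) and dark zone cells (DZ, 2382). The rule for these names is not given, so it is unknown whether the genes described here took part in it, and tests between states hold for the states as named.

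Counts were UMIs (unique molecules), summed over the cells of each mouse and state without the 253 immunoglobulin genes, with the mouse as replicate. Levels are CPM, counts scaled by the total of each sum over the genes that passed a filter on low counts. That total was adjusted by edgeR's scaling factor (the TMM factor). The sums held 32769 to 6726177 UMIs, and 32360 to 6655683 in the genes that passed the filter. PrePC cells were few, with 3 and 28 cells in the day 10 mice, 5 in 1 day 16 mouse and 5 and 6 in the day 22 mice, so prePC values rest on 5 mice. Marker sums, unlike the other levels, were scaled by the whole total of each sum without the TMM factor. Plasma cell markers summed to 23947 to 45233 CPM in PC and to at most 6194 CPM in any mouse of the other states. Memory precursor markers had a median sum of 686 CPM in prePC, against 263 in PC, 80.9 in LZtoDZ and 1082 in preMem. Of 8 T cell markers, 7 had UMIs in prePC (Cd8a was at 0; sums of 17.8 to 428 CPM over mice), 4 in PC (Cd3e, Cd3d, Cd4 and Cd8a at 0; 0 to 33.5 CPM) and 4 in LZtoDZ (Cd3e, Cd3g, Cd4 and Cd8a at 0; 53.1 to 109 CPM), and their part in the results was not tested. Capture well and cell cycle moved with state: 234 of 242 PC but 43 of 232 LZtoDZ cells came from the PC well, and 68.1% of LZtoDZ, 26.9% of PC and 3.45% of preMem cells were called in S phase. The 2 wells shared 6 cell barcodes (12 cells).

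By mean summed CPM the serine and one-carbon genes were highest in LZtoDZ and the tRNA synthetases in PC. These sums rest on the TMM factors and were not tested between states. The 8 serine and one-carbon genes together reached 991 ± 195 CPM in PC, 749 ± 318 in prePC, 1369 ± 117 in LZtoDZ, 296 ± 32.5 in preMem, 586 ± 17.5 in LZ and 546 ± 18.3 in DZ (SD; n = 6 mice, 5 for prePC). The 18 synthetases together reached 1988 ± 212 CPM in PC, 1185 ± 334 in prePC, 1759 ± 101 in LZtoDZ, 904 ± 103 in preMem, 1089 ± 27.8 in LZ and 1126 ± 26.7 in DZ. For the transporters the sums were 538 ± 78.9 CPM in PC, 309 ± 51.2 in prePC, 353 ± 34.3 in LZtoDZ, 384 ± 90.3 in preMem, 331 ± 16.0 in LZ and 292 ± 5.56 in DZ. Transporter sums of all 6 PC mice (480 to 689 CPM) lay above those of all 6 LZtoDZ mice (314 to 411 CPM), whereas the synthetase sums of PC (1650 to 2210 CPM) and LZtoDZ (1665 to 1945 CPM) overlapped. Per cell the order was another, because cells of the states differ in total RNA captured: synthetase UMIs averaged 24.4 ± 4.49 per PC and 44.1 ± 5.50 per LZtoDZ cell, against 4.64 ± 0.666 per preMem cell. A CPM level therefore compares TMM-adjusted shares of captured messenger RNA outside immunoglobulin genes, not molecules per cell. Immunoglobulin genes took 15.5 to 26.9% of UMIs in the PC mice and 0.722 to 0.975% in the LZtoDZ mice.

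**Figure D1:**
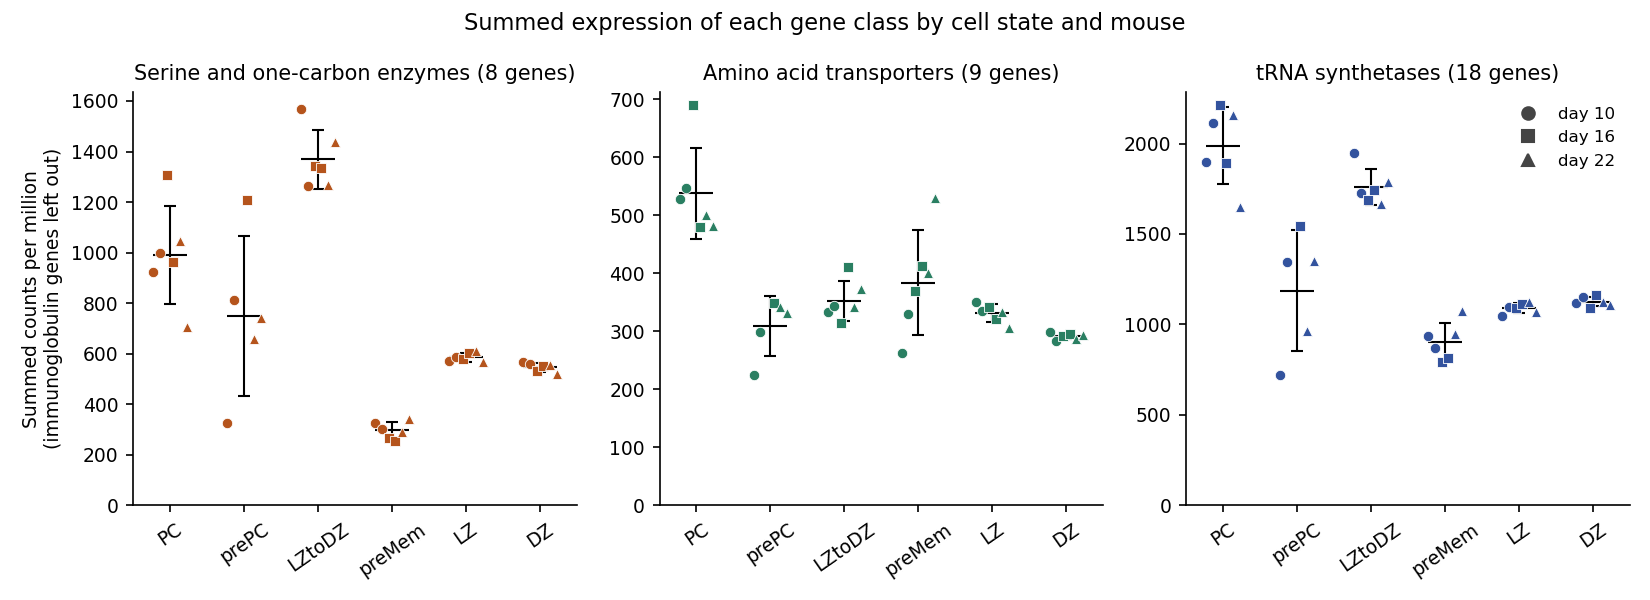
Summed CPM (immunoglobulin genes left out) of the 8 serine and one-carbon genes, 9 transporters and 18 tRNA synthetases in each cell state; points are mice shaped by day, horizontal lines the mean and bars the SD over 6 mice (5 for prePC). Serine and one-carbon sums peak in LZtoDZ (1262 to 1570 CPM), transporter sums in PC (480 to 689 CPM), and synthetase sums are high in both.

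Gene by gene, 34 of the 36 members passed the filter on low counts and were tested with edgeR's quasi-likelihood test over all genes, with mouse as a block. A gene was called at an adjusted p under 0.05 (Benjamini-Hochberg). The cystine transporter gene Slc7a11 (13 UMIs in all cells) and the neutral amino acid transporter gene Slc1a4 (73 UMIs) were too rare. In PC against LZtoDZ 11 members were higher and 12 lower, where 28.8% and 28.7% of all genes tested were higher and lower. In PC against preMem 27 were higher and 0 lower, against 29.6% and 31% of all genes. In PC against prePC 14 were higher and 1 lower, against 17.8% and 12.3% (1329 and 921 genes, or 1065 and 1163 with DESeq2). In prePC against LZtoDZ 0 were higher and 16 lower, against 12.4% and 13.8%. In prePC against preMem 12 were higher and 1 lower, against 11.3% and 14.4%. In LZtoDZ against preMem 26 were higher and 2 lower, against 28.1% and 37%. In LZtoDZ against the mean of LZ and DZ 28 were higher and 2 lower, against 26.5% and 36.4%. The members called between PC and LZtoDZ were thus split almost evenly, like all genes (2152 higher and 2145 lower; 1922 and 2511 with DESeq2 size factors, where the members were 10 and 12), while the calls against preMem were nearly all in 1 direction. These comparisons share sums of the same mice and are not independent of each other.

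By mean level, LZtoDZ was the highest of the 6 states for 18 of the 36 members and PC for 16, with preMem highest for Slc38a2 and DZ for Vars. Of the 18 synthetases 10 were highest in PC (Cars, Hars, Lars, Mars, Nars, Qars, Sars, Tars, Wars and Yars) and 7 in LZtoDZ (Aars, Dars, Eprs, Gars, Iars, Kars and Rars). Of the 8 serine and one-carbon genes 6 were highest in LZtoDZ and 2, Phgdh and Psph, in PC. Neighbouring means often differed by less than their spread, as for Tars with 104 ± 12.4 CPM in PC and 96.1 ± 7.83 in LZtoDZ.

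**Figure D2:**
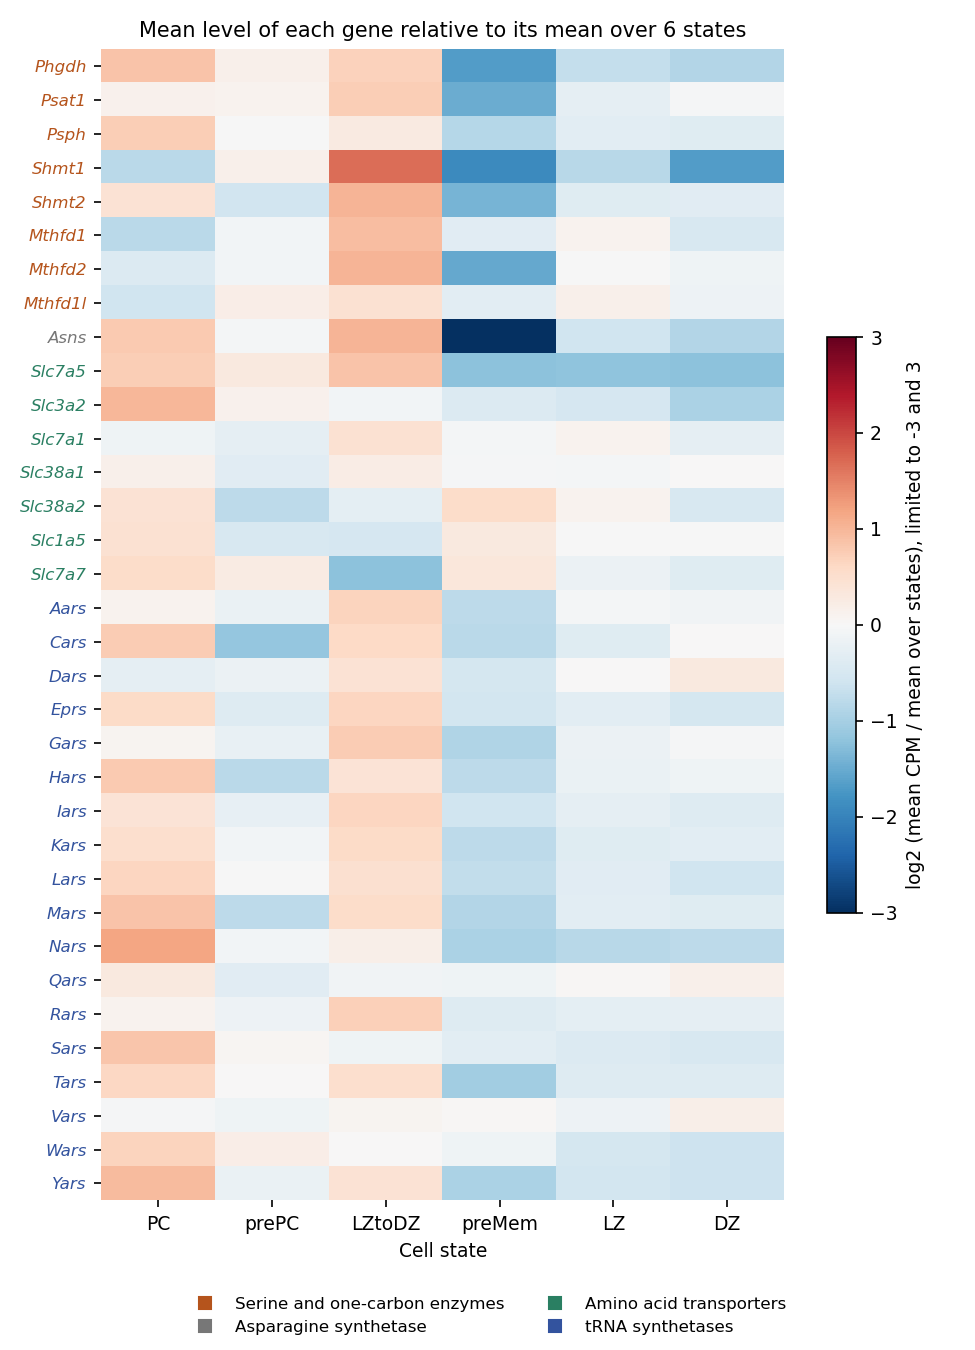
Mean CPM of each tested member in each state relative to its mean over the 6 states, on a log2 scale limited to −3 and 3; gene names are coloured by class. Of the 8 serine and one-carbon genes 6 are highest in LZtoDZ and 2, Phgdh and Psph, in PC, most synthetases are red in both PC and LZtoDZ, and preMem is blue for most genes.

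The 3 enzymes that make serine were higher in both LZtoDZ and PC than in preMem. Phgdh, which catalyses the first step, had 434, 453, 689, 377, 476 and 329 CPM in the 6 PC mice, 502, 337, 405, 406, 387 and 444 CPM in the LZtoDZ mice, and 96.5, 91.4, 69.6, 58.5, 67.6 and 98.0 CPM in the preMem mice, with mice in the order of day. PC and LZtoDZ overlapped, and preMem lay below both. PC exceeded preMem by 2.40 ± 0.14 on the log2 scale (SE, edgeR adjusted p = 8.08e-21), and LZtoDZ exceeded preMem by 2.26 ± 0.13 (adjusted p = 2.75e-20). PC and LZtoDZ differed by 0.14 ± 0.10 (adjusted p = 0.212). LZtoDZ stood 1.46 ± 0.07 above the mean of LZ and DZ. Psph, the phosphatase of the last step, was the only serine and one-carbon gene called higher in PC than in LZtoDZ (95.4 ± 31.9 against 68.5 ± 7.05 CPM; log2 0.56 ± 0.14, higher in 4 of 6 mice), and in S phase cells alone this was 0.38 with adjusted p = 0.0929. Within the PC well alone it was 0.06 (edgeR adjusted p = 0.884). Psat1, the transaminase between them, was lower in PC (121 ± 23.4 CPM) than in LZtoDZ (187 ± 13.3 CPM), by −0.68 ± 0.12 and in 6 of 6 mice.

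The enzymes that handle the one-carbon unit were lower in PC than in LZtoDZ. The cytosolic serine hydroxymethyltransferase gene Shmt1 had 37.4, 24.2, 0, 27.9, 27.3 and 24.3 CPM in PC, against 191, 114, 106, 135, 102 and 134 CPM in LZtoDZ. The groups did not overlap, and the difference was −2.30 ± 0.17 (adjusted p = 1.50e-16), the largest among the 34 members in that comparison. Mthfd2, the mitochondrial methylenetetrahydrofolate dehydrogenase gene, had 42.0, 81.6, 50.7, 111, 98.4 and 48.7 CPM in PC, against 230, 190, 177, 186, 179 and 206 CPM in LZtoDZ, again without overlap (−1.18 ± 0.13, adjusted p = 3.13e-11). The cytosolic trifunctional enzyme gene Mthfd1 differed by −1.49 ± 0.21, the mitochondrial formyltetrahydrofolate synthetase gene Mthfd1l by −0.98 ± 0.23 and the mitochondrial Shmt2 by −0.60 ± 0.10. In all, 6 of the 8 genes were lower in PC than in LZtoDZ and 1 higher (75% and 12.5%, against 28.7% and 28.8% of all genes). The median of the 8 was −0.83, where the median of all genes tested was −0.03.

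Against preMem the same class was higher in PC for 6 of 8 genes (75%, against 29.6% of all genes). The folate enzyme genes Mthfd1 and Mthfd1l were not called. Mthfd1 was at 21.3 ± 12.5 CPM in PC and 29.6 ± 7.50 in preMem (log2 −0.05 ± 0.29), and Mthfd1l at 17.6 ± 10.3 and 21.4 ± 9.97 (0.01 ± 0.31). Shmt2 exceeded preMem by 1.86 ± 0.15 and Mthfd2 by 1.10 ± 0.20 in PC. In LZtoDZ all 8 genes were higher than in preMem (against 28.1% of all genes), with a median of 2.22. The differences ran from 1.00 ± 0.24 for Mthfd1l to 3.77 ± 0.23 for Shmt1. All 8 were also higher than the mean of LZ and DZ (against 26.5% of all genes), with a median of 1.13 and with every mouse in that direction. These differences ran from 0.45 ± 0.12 for Mthfd1l to 2.85 ± 0.10 for Shmt1. PrePC cells lay between: 6 of 8 were lower than in LZtoDZ (median −0.77) and 6 of 8 higher than in preMem (median 1.31). Of all genes, 13.8% were lower and 11.3% higher in these 2 comparisons. Shmt1 had 49.8, 55.2, 43.5, 26.3 and 51.0 CPM in the 5 prePC mice, below every LZtoDZ mouse and above every preMem mouse (6.16 to 17.3 CPM). Against prePC, PC was higher for Phgdh (0.58 ± 0.15) and Shmt2 (0.67 ± 0.18) and lower for Shmt1 (−0.97 ± 0.31). Without day 10 mouse 2, which gave 28 of the 47 prePC cells, 4 members in place of 16 were called between prePC and LZtoDZ. Between prePC and preMem 7 were called in place of 13, and between PC and prePC 6 in place of 15. Calls over all genes fell too, from 1958 to 928, from 1918 to 656 and from 2250 to 1141 in the same order.

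**Figure D3:**
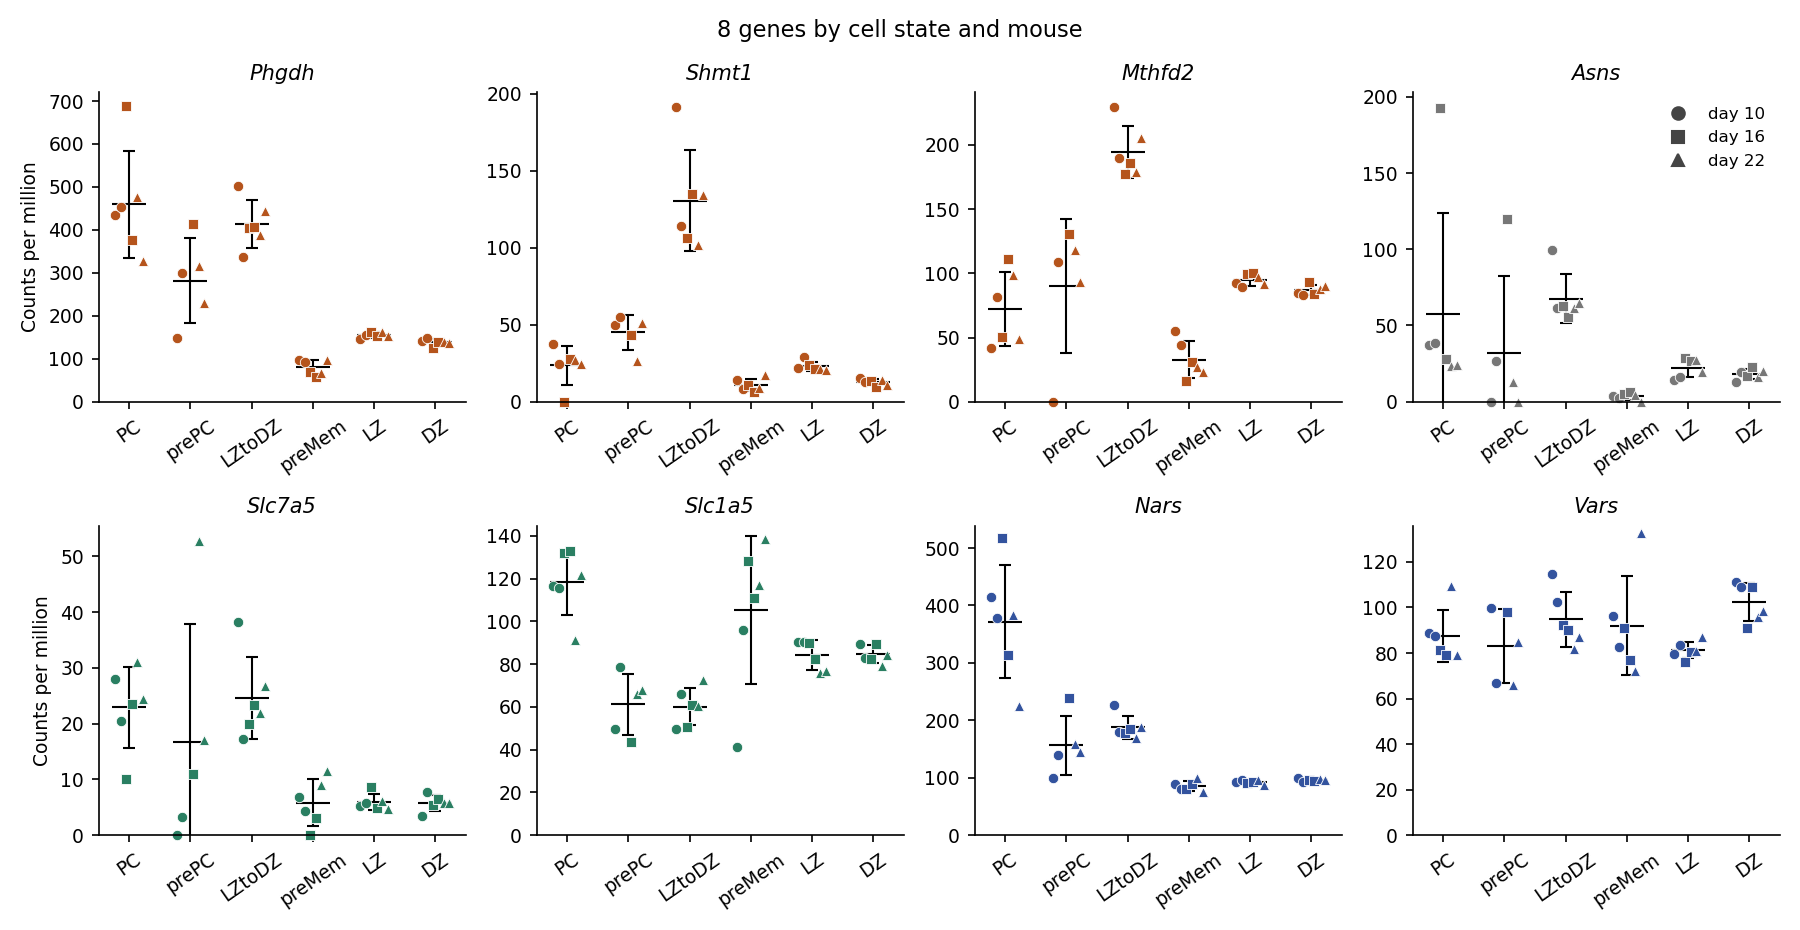
CPM of 8 members by cell state; points are mice shaped by day, lines the mean and bars the SD over mice. Shmt1 and Mthfd2 are highest in LZtoDZ, Phgdh is high in PC and LZtoDZ, Nars is highest in PC (225 to 517 CPM), and the means of Vars lie between 81.3 and 102 CPM in all 6 states.

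Asns, which makes asparagine from aspartate and glutamine, had the largest difference of the 34 members between LZtoDZ and preMem. Its levels were 99.5, 61.5, 63.1, 55.4, 61.2 and 64.8 CPM in LZtoDZ, against 3.45, 2.49, 5.35, 6.16, 4.50 and 0 CPM in preMem (9 UMIs in 522 cells). The groups did not overlap, and the difference was 4.18 ± 0.47 (adjusted p = 5.45e-11). Against the mean of LZ and DZ it was 1.62 ± 0.16, with LZ at 22.1 ± 6.10 and DZ at 18.2 ± 3.37 CPM. PC had 37.4, 38.3, 193, 27.9, 23.7 and 24.3 CPM, so that 1 mouse, with 12 PC, was above every LZtoDZ mouse and the other 5 below. The fit put PC at −0.64 ± 0.25 against LZtoDZ (adjusted p = 0.0232) and at 3.54 ± 0.56 against preMem. The call between PC and LZtoDZ was lost without day 10 mouse 2 and without day 22 mouse 1, where the difference ranged from −0.93 to −0.51 over the mice left out in turn.

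Asns is a well known target of ATF4, the transcription factor of the amino acid response, which binds with C/EBP partners to a composite element. The letters TGATGNAA, searched on both strands in RefSeq promoter windows (GRCm38.p6, 250 bases before to 50 after each start site), stood in 9 of the 26 members with a window (34.6%) and in 1219 of 27025 genes (4.51%). They were in Asns, in 3 of 6 transporters (Slc7a11, Slc1a4 and Slc7a7), in 5 of 11 synthetases (Aars, Gars, Iars, Tars and Yars) and in 0 of 8 serine and one-carbon genes. Slc7a5, Slc38a1, Slc1a5, Cars, Hars, Lars, Nars, Rars, Vars and Wars had no window and were not searched. Some genes, such as Slc7a7, had several windows. The E-box CACGTG, a site that Myc can bind, stood in 3 of 26 members (Aars, Iars and Tars; 11.5%) and in 8.09% of all genes. In these 3 genes the matches to the motifs shared no bases. A match is a description of letters only, and windows without one say nothing on the factor. The composite element is shown here for 6 tested members, 1 match for each gene (Slc7a7 holds 2 in that window) with 11 bases on each side, read along the gene, with the element in capitals. In Gars, Iars and Tars it lies on the other strand and so reads as its reverse complement.
Asns (chr6:7693214-7693243, minus strand): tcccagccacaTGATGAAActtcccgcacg
Slc7a7 (chr14:54418067-54418096, minus strand): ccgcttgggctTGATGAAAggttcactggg
Gars (chr6:55037960-55037989, plus strand): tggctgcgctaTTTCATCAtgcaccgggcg
Iars (chr13:49682126-49682155, plus strand): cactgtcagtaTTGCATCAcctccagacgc
Tars (chr15:11399655-11399684, minus strand): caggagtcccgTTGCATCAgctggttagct
Yars (chr4:129189895-129189924, plus strand): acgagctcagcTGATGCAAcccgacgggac

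The 7 tested members with the element did not move as one between PC and LZtoDZ. Asns, Aars (−0.53 ± 0.14) and Gars (−0.49 ± 0.12) were lower in PC, Yars (0.77 ± 0.13) and Slc7a7 (1.50 ± 0.44) were higher, and Iars (−0.08 ± 0.19) and Tars (0.13 ± 0.12) were not called. The gene of ATF4 itself averaged 177 CPM in PC, 63.0 in prePC, 92.4 in LZtoDZ and 73.9 in preMem. Atf4 was higher in PC than in LZtoDZ by 0.93 ± 0.11 (adjusted p = 9.22e-11) and than in preMem by 1.30 ± 0.13.

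Of the 7 transporters tested, 4 were higher in PC than in LZtoDZ (57.1%), 1 was lower (14.3%) and 2 were not called. All genes gave 28.8% and 28.7%. Slc3a2, the heavy chain that carries several light chain transporters to the membrane, had 145, 220, 294, 114, 162 and 189 CPM in PC, against 45.9, 89.1, 70.8, 125, 89.9 and 108 CPM in LZtoDZ. It was higher in 5 of 6 mice by 0.96 ± 0.14 (adjusted p = 3.12e-08), and in S phase cells alone the difference was 0.29 (adjusted p = 0.236). Slc1a5, a glutamine carrier, had 117, 115, 132, 133, 91.1 and 122 CPM in PC, against 49.8, 66.0, 50.8, 61.0, 60.4 and 72.6 CPM in LZtoDZ. The groups did not overlap (0.88 ± 0.13, adjusted p = 1.65e-07), and among S phase cells the gene remained higher (0.57, adjusted p = 0.0102). Slc38a2, a small neutral amino acid carrier, was higher by 0.52 ± 0.15, and Slc7a7, the light chain of a cationic and neutral amino acid exchanger, by 1.50 ± 0.44 from few molecules (44 UMIs in PC and 32 in LZtoDZ). Slc7a1, a cationic amino acid transporter, was lower in PC by −0.74 ± 0.24, a call lost without day 10 mouse 2. The leucine transporter light chain gene Slc7a5 stood at 22.9 ± 7.25 CPM in PC and 24.6 ± 7.42 in LZtoDZ (0.09 ± 0.26, adjusted p = 0.784), and the glutamine carrier gene Slc38a1 at 90.5 ± 17.4 and 95.4 ± 24.2 CPM (0.09 ± 0.12, adjusted p = 0.53).

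The products of Slc7a5 and Slc3a2 form 1 transporter, and both genes were higher in PC and in LZtoDZ than in preMem. Slc7a5 was at 5.81 ± 4.18 CPM in preMem, 5.91 ± 1.45 in LZ and 5.78 ± 1.44 in DZ, below each PC mouse in LZ and DZ (10.1 to 31.0 CPM in PC). It was 2.19 ± 0.42 higher in PC and 2.10 ± 0.39 higher in LZtoDZ than in preMem, and 1.91 ± 0.20 higher in LZtoDZ than the mean of LZ and DZ. Slc3a2 exceeded preMem by 1.44 ± 0.17 in PC and by 0.49 ± 0.18 in LZtoDZ, the second call lost without day 10 mouse 2, and was 0.74 ± 0.11 higher in LZtoDZ than the mean of LZ and DZ. The differences of the 2 genes were not tested against each other. Slc1a5 and Slc38a2 ran the other way, with LZtoDZ below preMem by −0.65 ± 0.14 and −0.67 ± 0.15, and Slc1a5 also below the mean of LZ and DZ by −0.44 ± 0.09. In prePC 0 of the 7 were higher than in LZtoDZ, and Slc7a1 (−1.37 ± 0.44) and Slc38a1 (−0.54 ± 0.20) were lower. Without day 10 mouse 2 neither was called. Of all genes tested, 12.4% were higher and 13.8% lower in prePC than in LZtoDZ. PC exceeded prePC for 4 of 7 (57.1%, against 17.8% of all genes), from 0.63 ± 0.21 for Slc38a1 to 0.85 ± 0.27 for Slc38a2. Without that mouse it did so for 0 of 7, and for 752 of all 6888 genes. Against preMem, prePC was lower for Slc38a2, in 5 of 5 mice (edgeR adjusted p = 0.00369).

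Of the 18 synthetases 6 were higher in PC than in LZtoDZ (33.3%), 4 were lower (22.2%) and 8 were not called, with a median of 0.14. These shares lie near the 28.8% and 28.7% of all genes. Nars, which charges tRNA with asparagine, had 416, 379, 517, 313, 383 and 225 CPM in PC, against 226, 180, 179, 185, 168 and 188 CPM in LZtoDZ. Every mouse was higher in PC, although the lowest PC mouse and the highest LZtoDZ mouse met (0.99 ± 0.09, adjusted p = 6.57e-14). Sars, for serine, had 201, 223, 426, 219, 233 and 128 CPM in PC, against 99.5, 125, 143, 116, 117 and 141 CPM in LZtoDZ, higher in 5 of 6 mice (0.85 ± 0.11). Wars (tryptophan) was higher by 0.78 ± 0.20, Yars (tyrosine) by 0.77 ± 0.13, Hars (histidine) by 0.50 ± 0.13 and Qars (glutamine) by 0.34 ± 0.12. The Wars call was lost without day 10 mouse 2, where the difference was 0.27, and the Qars call without either day 22 mouse. Lower in PC were Aars (alanine, −0.53 ± 0.14), Dars (aspartate, −0.52 ± 0.11), Gars (glycine, −0.49 ± 0.12) and Rars (arginine, −0.41 ± 0.14), the last not called without day 10 mouse 2. Dars had 98.1, 126, 30.4, 103, 111 and 110 CPM in PC, against 142, 157, 154, 150, 169 and 174 CPM in LZtoDZ, without overlap. Cars (cysteine), Eprs (glutamate and proline), Iars (isoleucine), Kars (lysine), Lars (leucine), Mars (methionine), Tars (threonine) and Vars (valine) differed by −0.08 to 0.20.

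**Figure D4:**
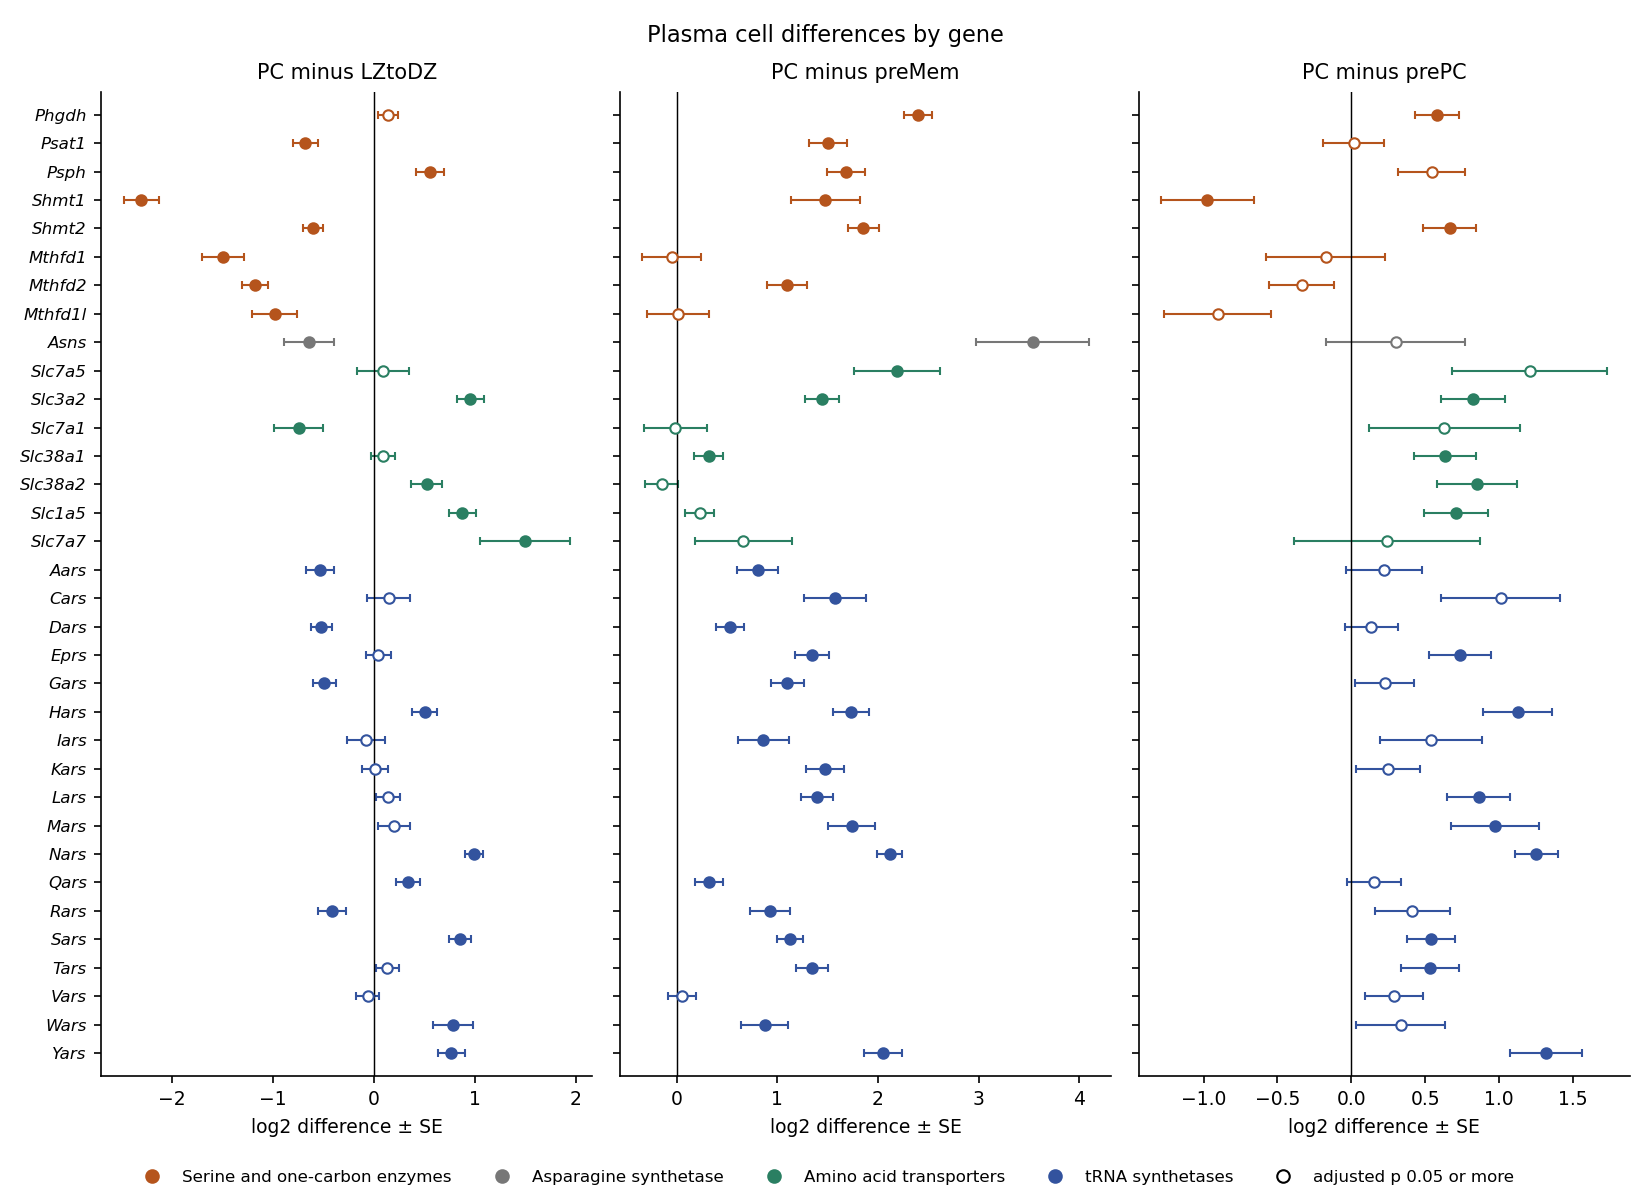
Log2 difference ± SE (edgeR, mouse as a block) of each tested member between PC and, from left to right, LZtoDZ, preMem and prePC; filled points have an adjusted p under 0.05 and colours give the class. Serine and one-carbon genes lie left of 0 against LZtoDZ apart from Phgdh and Psph, and against preMem the synthetases lie right of 0, with Vars at 0.05.

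Against preMem 17 of 18 synthetases (94.4%, against 29.6% of all genes) were higher in PC, with a median of 1.23. Vars was the exception (0.05 ± 0.14). The largest differences were Nars (2.11 ± 0.12), Yars (2.05 ± 0.19), Mars (1.74 ± 0.24) and Hars (1.73 ± 0.18), and the smallest called one was Qars (0.32 ± 0.14), a call lost when any of 5 mice was left out. In LZtoDZ 14 of 18 (77.8%, against 28.1% of all genes) were higher than in preMem, with a median of 1.24. They were led by Gars (1.59 ± 0.14), Mars (1.53 ± 0.22) and Kars (1.46 ± 0.17), and Qars, Sars, Vars and Wars were not called. Against the mean of LZ and DZ 16 of 18 (88.9%, against 26.5% of all genes) were higher in LZtoDZ, each of them in 6 of 6 mice. Qars was lower (−0.22 ± 0.08) and Vars was not called (0.02 ± 0.07). In prePC 8 of 18 were lower than in LZtoDZ (44.4%, against 13.8% of all genes) and 0 higher, with a median of −0.62. Among the 8 were Rars (−0.82 ± 0.23), Gars (−0.72 ± 0.18) and Dars (−0.65 ± 0.16). Without day 10 mouse 2 only Hars of the 18 was called there, and Lars was at −0.13 in place of −0.72. Against preMem 5 (27.8%, against 11.3% of all genes) were higher in prePC (Nars, Kars, Gars, Tars and Sars), and 2 (Nars and Tars) without that mouse. PC exceeded prePC for 8 of 18 (44.4%, against 17.8% of all genes) and was lower for 0. The 8 were led by Yars (1.32 ± 0.24), Nars (1.25 ± 0.15) and Hars (1.12 ± 0.23). Without day 10 mouse 2 there were 4, with Yars not called. The subunits of the multi-synthetase complex did not form a block between PC and LZtoDZ: of Dars, Eprs, Iars, Kars, Lars, Mars, Qars and Rars, Qars was higher and Dars and Rars were lower.

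Levels also differed between cell cycle phases, and the states differed in phase. Among LZ, DZ and LZtoDZ cells of the same mice, 22 members were higher and 2 lower in S phase than in G1 cells, where 28.6% and 27.9% of all genes were higher and lower. The S phase cells were 158 LZtoDZ, 1036 LZ and 628 DZ cells and the G1 cells 17 LZtoDZ, 1730 LZ and 881 DZ cells, so the difference between phases includes one between states. In LZ and DZ cells alone, a comparison chosen after the data were seen, 16 members were higher and 4 lower in S phase. Of 8922 genes tested there, 2326 were higher and 2154 lower. All 8 serine and one-carbon genes were higher in S phase, with a median of 0.87, and all 8 also in LZ and DZ cells alone, with a median of 0.74. Shmt1 averaged 49.5 ± 3.85 CPM in S phase and 10.8 ± 0.842 in G1 cells (2.17 ± 0.11), and Mthfd2 140 ± 10.3 and 69.4 ± 5.82 CPM (1.00 ± 0.05), each higher in 6 of 6 mice. In LZ and DZ cells alone these differences were 1.83 and 0.92. Of 18 synthetases 11 were higher in S phase and Qars was lower, with a median of 0.20, led by Kars (0.58 ± 0.09) and Aars (0.50 ± 0.07). In LZ and DZ cells alone 7 were higher and 3, Nars, Sars and Qars, were lower, with a median of 0.06. Asns was not called (28.1 ± 7.28 CPM in S phase and 27.2 ± 6.69 in G1 cells; 0.08 ± 0.12, adjusted p = 0.577), nor was Nars called (0.06 ± 0.05, adjusted p = 0.331), which in LZ and DZ cells alone was at −0.14 (adjusted p = 0.014).

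**Figure D5:**
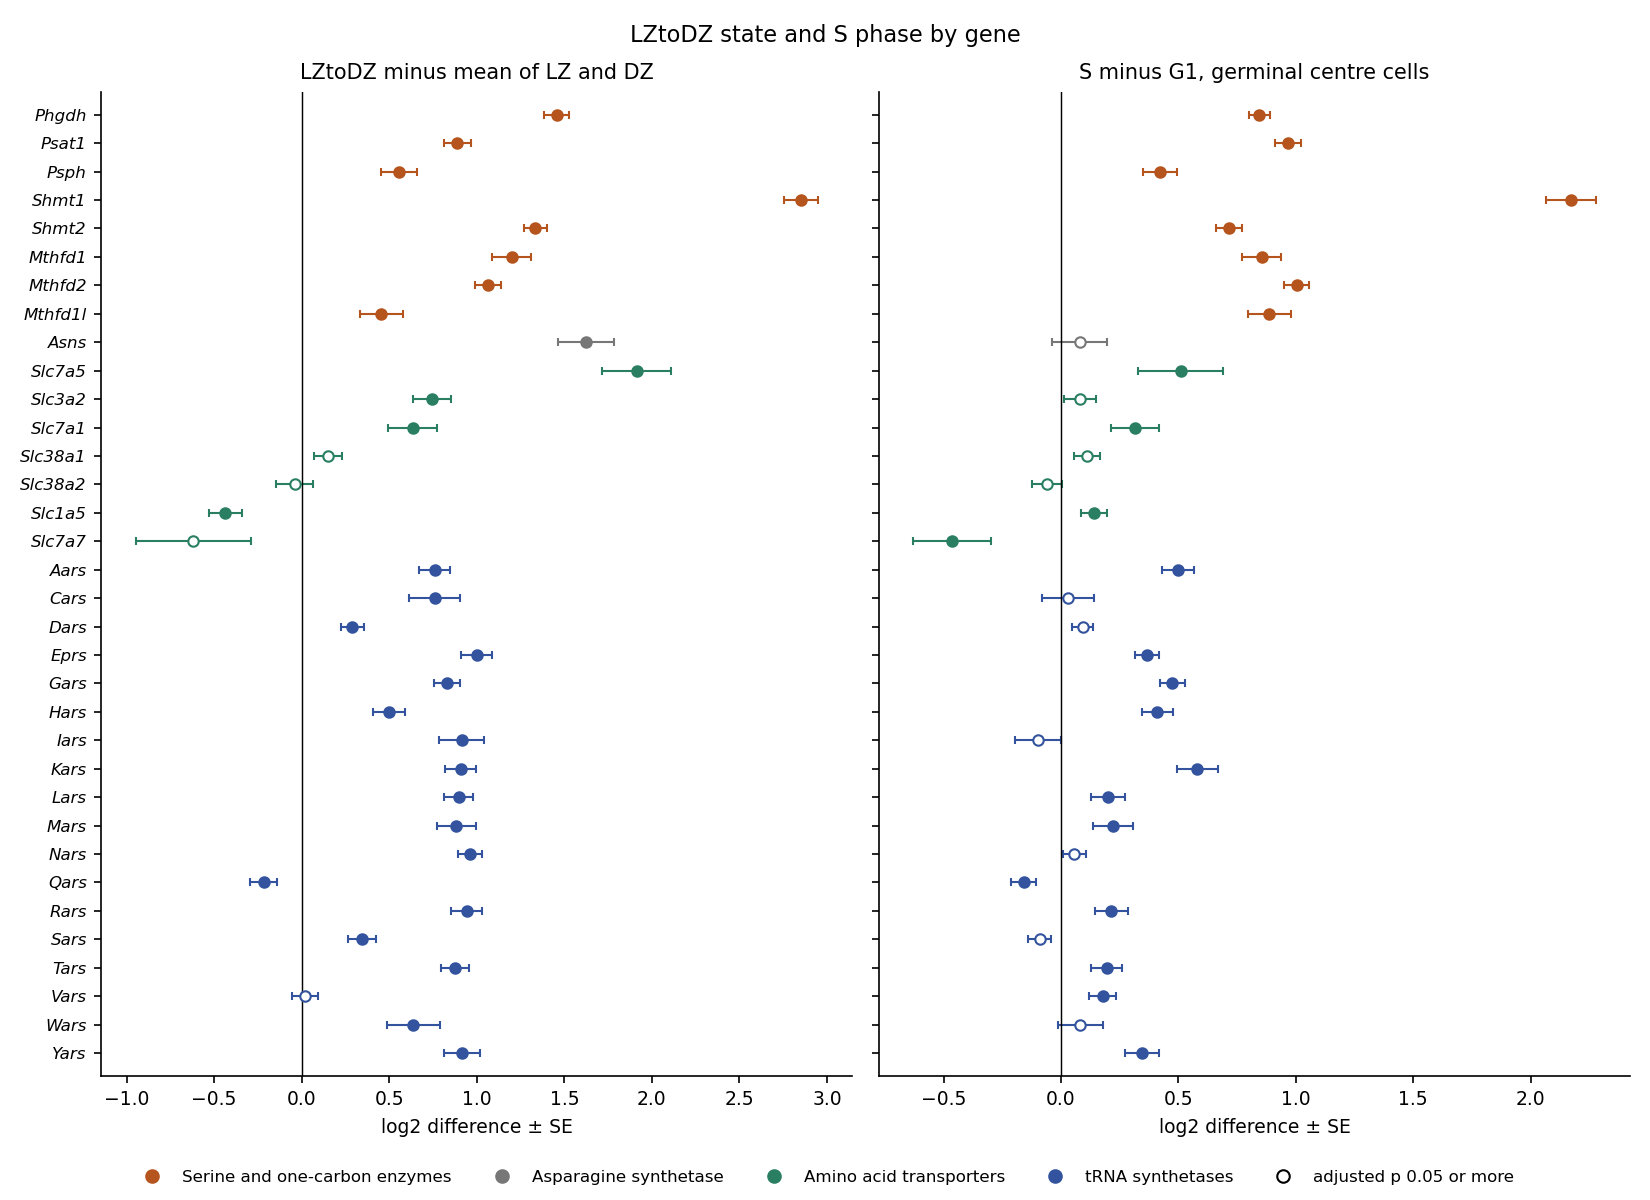
Log2 difference ± SE of each tested member between LZtoDZ and the mean of LZ and DZ (left) and between S phase and G1 cells within LZ, DZ and LZtoDZ cells (right); filled points have an adjusted p under 0.05. All 8 serine and one-carbon genes are right of 0 on both sides, Shmt1 furthest (2.85 and 2.17), while Asns is at 1.62 on the left and 0.08 on the right.

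Within S phase cells alone, a comparison chosen after the data were seen, 27 of 34 members were still higher in LZtoDZ than the mean of LZ and DZ and 1 lower. Of all 8637 genes tested there, 1763 were higher and 1866 lower. Shmt1 was then at 2.17, Asns at 1.62 and Slc7a5 at 2.04. Between PC and LZtoDZ, S phase cells alone gave 5 of 34 members higher (Slc1a5, Hars, Nars, Sars and Yars) and 9 lower (Psat1, Shmt1, Shmt2, Mthfd1, Mthfd2, Asns, Dars, Gars and Rars). All genes gave 1285 higher and 1701 lower of 8637 in that fit. Within the PC well alone, where 25 members could be tested, Slc3a2, Slc1a5 and Nars were higher in PC than in LZtoDZ and 7 members were lower (Psat1, Shmt1, Shmt2, Mthfd1, Mthfd2, Asns and Gars). There 692 of 3077 genes were higher and 722 lower. That fit took sums of at least 3 cells. Day 10 mouse 1 and day 22 mouse 1, with 1 LZtoDZ cell each from that well, gave no LZtoDZ sum to it. Within G1 cells alone 24 of 33 members were higher and 1, Mthfd1 (−1.22, edgeR adjusted p = 0.0209), lower in PC than in preMem, with 16 of 18 synthetases higher. Of 6636 genes tested in G1 cells, 1632 were higher and 1752 lower. PrePC against preMem differed most under that restriction: 1 member, Wars, was called higher in G1 cells in place of 12, and 0 of 7 serine and one-carbon genes. For that pair 101 of 6636 genes were higher and 173 lower.

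No member was called between days. Between day 22 and day 10 in LZ, DZ and LZtoDZ cells, 0 of 35 members tested were called by edgeR, 4 had an unadjusted p under 0.05 (Shmt1, Slc7a7, Slc38a2 and Slc1a5), and 0 were called by DESeq2, where edgeR called 2.22% of all genes higher and 2.24% lower. Shmt1 was at 28.2 and 33.7 CPM in the day 10 mice, 28.0 and 30.6 on day 16 and 26.7 and 26.3 on day 22 (log2 of day 22 over day 10 −0.26 ± 0.10). Slc1a5 was at 92.2 and 88.6 CPM on day 10, 86.3 and 86.1 on day 16 and 79.0 and 82.5 on day 22 (−0.16 ± 0.07). Slc7a7 was at 5.83 and 7.28 CPM on day 10, 8.51 and 6.71 on day 16 and 10.9 and 8.89 on day 22 (0.55 ± 0.19). Slc38a2 was at 62.3 and 57.7 CPM on day 10, 58.3 and 55.7 on day 16 and 50.2 and 53.9 on day 22 (−0.19 ± 0.08). These 4 genes were picked by their unadjusted p, and with 2 mice a day none passed the adjustment.

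Genes next to these in the same pathways were counted from lists of their own. Of 15 other folate and one-carbon genes tested, 14 were higher and 1 lower in LZtoDZ than the mean of LZ and DZ (93.3% and 6.67%). All genes gave 26.5% and 36.4% in that comparison. In PC against LZtoDZ 0 were higher and 9 lower (0% and 60%), where all genes gave 28.8% and 28.7%. The purine synthesis genes Atic (96.9 CPM in PC, 262 in LZtoDZ; −1.32 ± 0.12) and Gart (39.5 and 128 CPM; −1.46 ± 0.15), the methionine adenosyltransferase gene Mat2a (−1.15 ± 0.11) and the glycine cleavage gene Gcsh (−1.12 ± 0.21) had the lowest p among the 9. The reduced folate carrier gene Slc19a1 was 2.94 ± 0.18 higher in LZtoDZ than the mean of LZ and DZ. Of 12 genes of other non-essential amino acid synthesis, 5 were higher and 2 lower in PC than in LZtoDZ (41.7% and 16.7%, against 28.8% and 28.7% of all genes). The proline synthesis gene Pycr1 averaged 56.7 CPM in PC and 3.53 in LZtoDZ (4.03 ± 0.29), the aspartate aminotransferase gene Got1 72.0 and 29.5 CPM (1.28 ± 0.16), and the glutamine synthetase gene Glul 11.8 and 55.2 CPM (−2.16 ± 0.23). The branched chain aminotransferase gene Bcat1 was 2.24 ± 0.13 higher in LZtoDZ than the mean of LZ and DZ. Of 8 genes listed as other cytosolic synthetase subunits and cofactors, 6 were higher in LZtoDZ than the mean of LZ and DZ (75%, against 26.5% of all genes). Among them were the complex scaffold genes Eef1e1 (1.45 ± 0.07) and Aimp2 (1.31 ± 0.09). In PC against LZtoDZ 1 of these 8 was higher and 5 were lower (12.5% and 62.5%, against 28.8% and 28.7% of all genes). Eef1e1 was at −0.87 ± 0.12 and Farsb, for phenylalanine, at −0.80 ± 0.13. The higher one was Ptrh2 (0.89 ± 0.15), a peptidyl-tRNA hydrolase gene and not a synthetase subunit.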

How the data were processed

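The authors deposited 1 table of UMI counts per gene and cell with a cell annotation giving mouse, day, state and phase, per the file headers. The fraction was read from the start of each cell name. Per the submitters' processing notes, Cell Ranger and Seurat were used with mm10 (GRCm38); versions, and the rules for states and phases, are not given in the sources used here. Gene expression libraries numbered 8 per fraction; 2 PC and 1 non-PC receptor and 1 hashtag library per fraction were not used here. Raw counts were summed per mouse and state (at least 10 cells, 3 for prePC), without 253 immunoglobulin genes. The fits of the PC well alone and of S phase cells alone took sums of at least 3 cells for every state. The 6 states were fitted together with edgeR 4.0.16 (R 4.3.3; TMM, filterByExpr, quasi-likelihood test, Benjamini-Hochberg over all genes, threshold 0.05). All states come from the same animals, so mouse was a block; residuals of sums of the same mouse had a median correlation of 0.058 (−0.051 to 0.592, 85 pairs) and of other mice −0.011. S and G1 cells were compared likewise; days were compared with no block. Changes are log2 differences. All 36 members are named; of other lists, at most the 4 genes of lowest p called in a comparison. Members and lists were chosen with earlier results of these data known. DESeq2 1.42.0, other scalings and filters, thinned cells, single phases or wells and leaving out mice were alternatives. Counting precision is limited by sums of 32360 UMIs and more in the genes that passed the filter. Doublets were not called here.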

Additional observations from a re-analysis of the deposited data

Results flagged for a closer look

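In 33 of 148 groups of 5 or 6 mice, 1 mouse stood apart from the others by Dixon's 95% criterion, where chance gives about 1 in 20. Most of these values came from sums of few cells, whose part was not tested. In the day 16 mouse 1 PC sum (12 cells), Shmt1 was at 0 CPM (the next mouse at 24.2), Shmt2 at 243, Asns at 192.6 (next 38.3), Dars at 30.4, Sars at 425.8, Tars at 81.1 and the transporter sum at 689.5 CPM (next 547). In the day 10 mouse 1 LZtoDZ sum (11 cells), Shmt1 was at 191, Shmt2 at 318, Asns at 99.5, Slc38a1 at 141.7, Eprs at 256.5, Nars at 226 and Yars at 111 CPM, all above the other mice, and Mthfd1 at 38.3 and Slc7a1 at 15.3 CPM below them. Also in LZtoDZ, day 16 mouse 1 had Mthfd1l at 52.3 CPM, above, and Aars at 70.8 CPM, below the others.

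Among prePC sums, day 10 mouse 1 (3 cells) had Mthfd2 at 0 and Gars at 0 CPM, day 16 mouse 2 (5 cells) had Asns at 119.8 and Yars at 87.1 CPM, and day 22 mouse 1 had Sars at 92.2 CPM, below the rest. In preMem, day 22 mouse 2 (36 cells) was above the others for Mthfd1l, Kars and Yars (each 40.4 CPM), Slc7a7 (46.1) and Eprs (138), and day 22 mouse 1 for Sars (148.6 CPM). In PC, single mice were above the others for Aars (96.45 CPM, day 16 mouse 2), Qars (146, day 22 mouse 2), Vars (109, day 22 mouse 1) and Yars (126.9 CPM, day 10 mouse 2).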

How the results depend on the processing

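Counts of members called (higher and lower together) moved by over 1.5 times as follows. For PC against LZtoDZ the 23 calls became 14 with cells thinned to 4638 UMIs, 10 in the PC well alone and 14 in S phase cells alone. For PC against preMem 27 became 10 in the PC well alone. For PC against prePC 15 became 4 thinned and 3 with only those states in the fit. For prePC against LZtoDZ 16 became 10 thinned and 4 with only those states fitted. For prePC against preMem 13 became 1 thinned, 1 in G1 cells alone and 7 with only those states fitted. For LZtoDZ against preMem 28 became 11 in the PC well alone, and for S against G1 24 became 15 thinned. Between days, 0 became 1 (Slc7a7) with no filter on low counts. Thinning and smaller fits also tested fewer members. Calls over all genes fell as well in each of these settings apart from the day comparison (458 to 780). Thinned, they went from 4297 to 2245 for PC against LZtoDZ, 2250 to 1042 for PC against prePC and 1918 to 389 for prePC against preMem. In the PC well alone they went from 4297 to 1414 for PC against LZtoDZ and from 4529 to 1232 for PC against preMem. Leaving out each mouse in turn gave 19 to 23 calls for PC against LZtoDZ, 22 to 27 for PC against preMem, 6 to 17 for PC against prePC, 4 to 17 for prePC against LZtoDZ, 7 to 16 for prePC against preMem, 27 to 29 for LZtoDZ against preMem, 30 to 31 for LZtoDZ against LZ and DZ, 18 to 25 for S against G1 and 0 for days; the lowest prePC counts were without day 10 mouse 2. Without the mouse block the counts were 23, 26, 15, 16, 13, 28, 30 and 22 in the order above with S against G1 last. In G1 cells alone 4 called differences changed sign: Slc38a1 in PC against preMem (−0.1433) and Psat1 (−0.1324), Shmt2 (−0.2257) and Gars (−0.2146) in prePC against preMem; the cause was not tested. In LZ and DZ cells alone Slc7a5 (−0.04251) and Nars (−0.1448) changed sign between S and G1, where the fit leaves out LZtoDZ cells. LZtoDZ held too few G1 cells to be fitted there. With DESeq2 size factors the median of all genes shifted by −0.11 in the PC comparisons. Slc38a1, Qars and prePC calls are the least firm, and the few cells per prePC sum limit depth.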

Other observations

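Of 13 integrated stress response genes tested, 10 were higher and 1 lower in PC than in LZtoDZ (76.9% and 7.69%, against 28.8% and 28.7% of all genes). Their median was 0.93, where the median of all genes was −0.03. Besides Atf4, these included the ATF4 relative Atf5 (28.7 CPM in PC, 9.03 in LZtoDZ; log2 2.09 ± 0.39) and the kinase gene Eif2ak2 (31.5 and 14.2 CPM; 1.08 ± 0.21). The gene called lower was Eif2ak4, whose product senses uncharged tRNA (2.78 CPM in PC and 15.4 in LZtoDZ; −2.64 ± 0.48). In LZtoDZ against the mean of LZ and DZ, 1 of the 13 was higher and 4 were lower (7.69% and 30.8%, against 26.5% and 36.4% of all genes). In PC against preMem 4 were higher and 2 lower (30.8% and 15.4%, against 29.6% and 31% of all genes). In PC against prePC 1 was higher and 2 were lower (7.69% and 15.4%, against 17.8% and 12.3%). Mean Eif2ak2 was 33.6 CPM in preMem. Between S phase and G1 germinal centre cells 3 of 15 were higher and 9 lower (20% and 60%, against 28.6% and 27.9%). The part of phase in these counts was not tested.

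Of 19 genes of amino acid sensing by mTORC1, 5 were higher and 4 lower in PC than in LZtoDZ, shares of 26.3% and 21.1% where all genes gave 28.8% and 28.7%. Sec13, which also serves vesicle transport, was at 406 CPM in PC and 156 in LZtoDZ (1.35 ± 0.08), Rraga at 71.6 and 144 CPM (−1.02 ± 0.12) and the leucine sensor relative Sesn3 at 9.34 and 25.7 CPM (−2.06 ± 0.29). Of 12 mitochondrial tRNA synthetases, 2 were higher and 2 lower (16.7% each), among them Lars2 (197 CPM in PC and 82.5 in LZtoDZ; 1.32 ± 0.15) and Yars2 (19.1 and 40.4 CPM; −0.84 ± 0.21). Of 10 other amino acid transporter genes, 2 were higher and 3 lower (20% and 30%), with Slc38a10 at 66.2 and 18.0 CPM (1.83 ± 0.18) and the mitochondrial aspartate and glutamate carrier gene Slc25a13 at 6.46 and 24.9 CPM (−2.04 ± 0.32).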
